A study of Homo sapiens with 6 samples.

Results

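The response that glucose deprivation and glutamine deprivation have in common was measured in 95D cells, an established human lung cancer line, labelled as wild type. The libraries of both deprived media were taken as one deprived group of 3 libraries, 2 without glucose and 1 without glutamine, out of 6 libraries labelled and 5 used in all, and set against 2 control libraries. All cells were seeded for 24 h in complete medium. The control cells then stayed in control DMEM for 48 h, and the deprived cells spent 48 h in DMEM lacking either glucose or glutamine. Dialyzed serum (10%) was added to the media that lacked a nutrient, while for the control no dialysis is mentioned, so the change of serum and the loss of a nutrient cannot be told apart. The remaining library labelled as glutamine-deprived was not analysed here, because the header of its column names glucose deprivation.

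Each medium counted equally in the pooled comparison, so the single glutamine-deprived library carried as much weight as the mean of the 2 glucose-deprived libraries. A gene is called shared when it passed an adjusted p of 0.05 in the pooled comparison and all 3 deprived libraries lay on the same side of both controls. Of 16598 genes tested, 7602 (45.8%) were shared, 3711 of them higher (22.4%) and 3891 lower (23.4%). The pooled test alone, without the condition on overlap, called 9104 genes (54.8%), 4455 higher (26.8%) and 4649 lower (28%).

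Cells short of amino acids, or under stress in the endoplasmic reticulum, phosphorylate the translation factor eIF2, which slows protein synthesis while favouring translation of the transcription factor ATF4. ATF4 and its partner and target CHOP (encoded by DDIT3) turn on genes of amino acid synthesis, import and tRNA charging. Nutrient signals also reach the kinase complex mTORC1, which promotes ribosome production and growth, and cells that lack nutrients often leave the division cycle, in which the genes of DNA replication, histones and mitosis are expressed in sequence.

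The inferred depth was 34530000 to 48930000 fragments per library. Levels are given as FPKM, fragments normalised to transcript length and to the mapped total, after scaling between libraries. The log2 levels of the 2 controls correlated at 0.991 across genes and those of the 2 glucose-deprived libraries at 0.985, against 0.954 to 0.961 between groups. Of the line's markers, VIM (vimentin) was at 76.2 to 150.4 FPKM, KRT18 at 15.95 to 21.73 FPKM and KRT8 (both keratins) at 4.15 to 5.50 FPKM, whereas EPCAM stayed at or below 0.1386 FPKM and KRT19 was listed at 0 in all 5 libraries. These markers moved with deprivation and not in one direction: VIM was shared higher (0.51 ± 0.05, and 0.88 without glucose against 0.14 without glutamine), KRT8 shared higher (0.20 ± 0.06) and KRT18 shared lower (-0.30 ± 0.07). The calls of both keratins were lost without control replicate 1 or without control replicate 2. Of 20 markers of blood, stroma, endothelium, liver, neural and differentiated lung cells, 18 stayed under 1 FPKM in every library. The exceptions were SYP, a synaptic vesicle protein, at 2.00 to 4.56 FPKM and shared higher (log2 change 0.51 ± 0.09, SE), and COL1A1, a collagen, which reached 1.83 FPKM without glutamine. Their part in the results was not tested.

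ASNS, which makes asparagine from aspartate and glutamine and is a standard target of ATF4, had 23.3 and 21.2 FPKM in the controls, 70.6 and 69.9 FPKM without glucose and 48.4 FPKM without glutamine. Every deprived library lay above both controls, and the glucose-deprived pair lay highest. The pooled rise was 1.35 ± 0.05 (log2, SE; limma adjusted p = 3.56e-06). SLC7A1, a plasma membrane importer of arginine and lysine, had 14.8 and 15.2 FPKM in the controls, 32.4 and 31.7 FPKM without glucose and 40.0 FPKM without glutamine. Here the glutamine-deprived library was the highest of the 5, and the groups again did not overlap. The pooled rise was 1.21 ± 0.04 (adjusted p = 2.33e-06).

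CCNB1, the mitotic cyclin B1, had 88.0 and 92.5 FPKM in the controls, 38.6 and 41.4 FPKM without glucose and 50.9 FPKM without glutamine. CYCS, the electron carrier cytochrome c, had 93.0 and 90.4 FPKM in the controls, 41.1 and 44.2 FPKM without glucose and 41.2 FPKM without glutamine. PRDX1, a peroxide-reducing peroxiredoxin, had 432 and 418 FPKM in the controls, 205 and 212 FPKM without glucose and 215 FPKM without glutamine. All deprived libraries lay below both controls for these 3 genes, and for CYCS and PRDX1 the values without glutamine sat at or next to those without glucose. The pooled falls were -0.98 ± 0.05, -1.11 ± 0.05 and -1.001 ± 0.04 (log2, SE), with limma adjusted p-values of 6.35e-06, 4.19e-06 and 4.19e-06. For CYCS the 2 media differed by -0.05 (adjusted p = 0.551) and for PRDX1 by 0.05 (adjusted p = 0.521), glutamine minus glucose deprivation, while CCNB1 fell less without glutamine, by 0.34 (adjusted p = 0.00294). In bulk RNA, fewer cells in a phase of the cycle and less RNA per cell cannot be told apart. Counting error was small beside these changes: the lowest inferred count among the 5 genes was 3538 fragments, for ASNS in control replicate 1, a counting error of 1.68%.

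**Figure D1:**
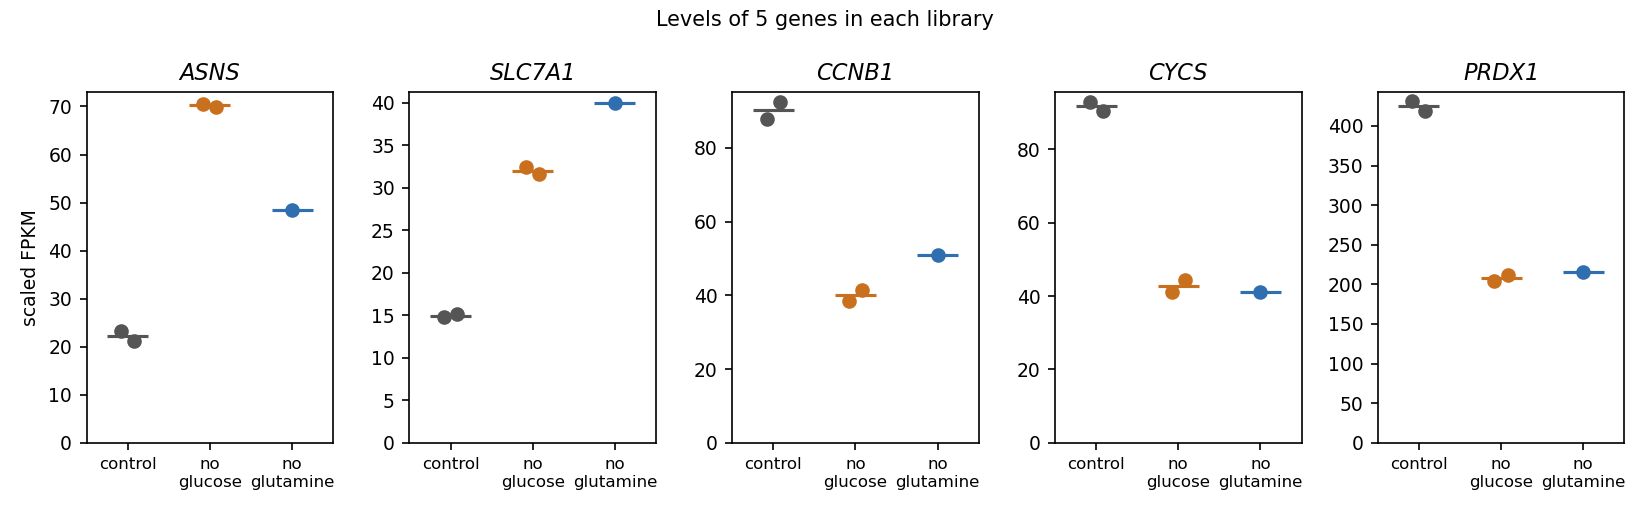
Scaled FPKM (vertical axes, starting at 0) of 5 genes in each of the 5 libraries; points are libraries, and bars are group means, with 1 library for glutamine deprivation. In all 5 panels the deprived libraries lie on the same side of both controls: ASNS between 48.4 and 70.6 against 21.2 to 23.3, and PRDX1 between 205 and 215 against 418 to 432.

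The 250 bases before the RefSeq start sites of 3 of these genes show the letters that a search for known elements picks out, and are given because one is a well-studied ATF4-responsive promoter and the others belong to lists that fell together. They lie on GRCh38.p14 at chr7:97872409-97872658 (ASNS, minus strand), chr5:69166900-69167149 (CCNB1, plus strand) and chr7:25125261-25125510 (CYCS, minus strand), each written 5′ to 3′ in the direction of transcription. Capitals mark TGATGNAA, the core of the C/EBP-ATF element, and CCAAT, the box bound by the factor NF-Y, on either strand.
ASNS promoter: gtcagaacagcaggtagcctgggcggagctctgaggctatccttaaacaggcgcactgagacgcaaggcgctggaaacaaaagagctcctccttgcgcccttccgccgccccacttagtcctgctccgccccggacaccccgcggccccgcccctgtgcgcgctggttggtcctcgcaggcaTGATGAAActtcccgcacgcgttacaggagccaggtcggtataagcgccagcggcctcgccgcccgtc
CCNB1 promoter: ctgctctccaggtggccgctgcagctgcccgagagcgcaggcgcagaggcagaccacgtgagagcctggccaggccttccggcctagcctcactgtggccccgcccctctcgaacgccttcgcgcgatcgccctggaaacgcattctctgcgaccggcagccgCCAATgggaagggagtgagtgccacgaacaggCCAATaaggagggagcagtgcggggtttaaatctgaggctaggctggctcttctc
CYCS promoter: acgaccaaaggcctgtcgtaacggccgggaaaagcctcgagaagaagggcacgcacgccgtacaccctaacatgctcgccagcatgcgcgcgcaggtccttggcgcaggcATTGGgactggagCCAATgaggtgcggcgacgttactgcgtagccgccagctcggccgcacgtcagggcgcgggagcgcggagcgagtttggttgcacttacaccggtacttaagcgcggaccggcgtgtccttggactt
The ASNS match, TGATGAAA, begins at position -68 from the start site. Those of CCNB1 begin at -87 and -55, and CYCS has a pair at -140 (as its reverse complement) and -127. SLC7A1 carries TGATGAAA from position 8, inside the transcribed part, and a reverse-strand CCAAT at -100. A match of letters is a description and shows no binding.

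Across all genes tested the median pooled log2 change was 0.04. Shared higher genes had a median rise of 0.42 and shared lower genes a median of -0.39, and the median of the lesser change, the smaller in size of a gene's changes in the 2 media, was 0.29 and -0.28. Fewer genes reached larger sizes: 589 genes (3.55%) rose and 411 (2.48%) fell by at least 1.5-fold in both media, and 114 (0.687%) rose and 50 (0.301%) fell by at least 2-fold in both. Without control replicate 1 the pooled test called 5781 genes and 2268 were shared higher, and without control replicate 2 it called 5801 and 2357 were shared higher. Called in each medium on its own with the same sign were 2180 higher (13.1%) and 2794 lower (16.8%).

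Direction differed with abundance. Shared lower genes had a median control level of 15.2 FPKM and shared higher genes one of 2.39 FPKM. Of the 4176 genes with a mean of 10 to 100 FPKM, 2223 (53.2%) were shared lower and 432 (10.3%) shared higher, whereas of 10131 genes at 1 to 10 FPKM 1487 (14.7%) were shared lower and 2938 (29%) shared higher. Among 296 genes above 100 FPKM, 144 were shared lower and 13 shared higher. How many genes lay on each side depended on the scaling. Of the calls, 48.9% were higher with the scaling used, 63.3% with the values as deposited and 63.0% with upper-quartile scaling. With every library set to the same total 83.9% were, the median of all genes moved to 0.21 and the shared lower genes numbered 928. That total rests largely on few genes: in each library the top 10 held 55.4% to 61.1% of the summed FPKM. The sums of the glucose-deprived pair were 493129 and 565293.

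**Figure D2:**
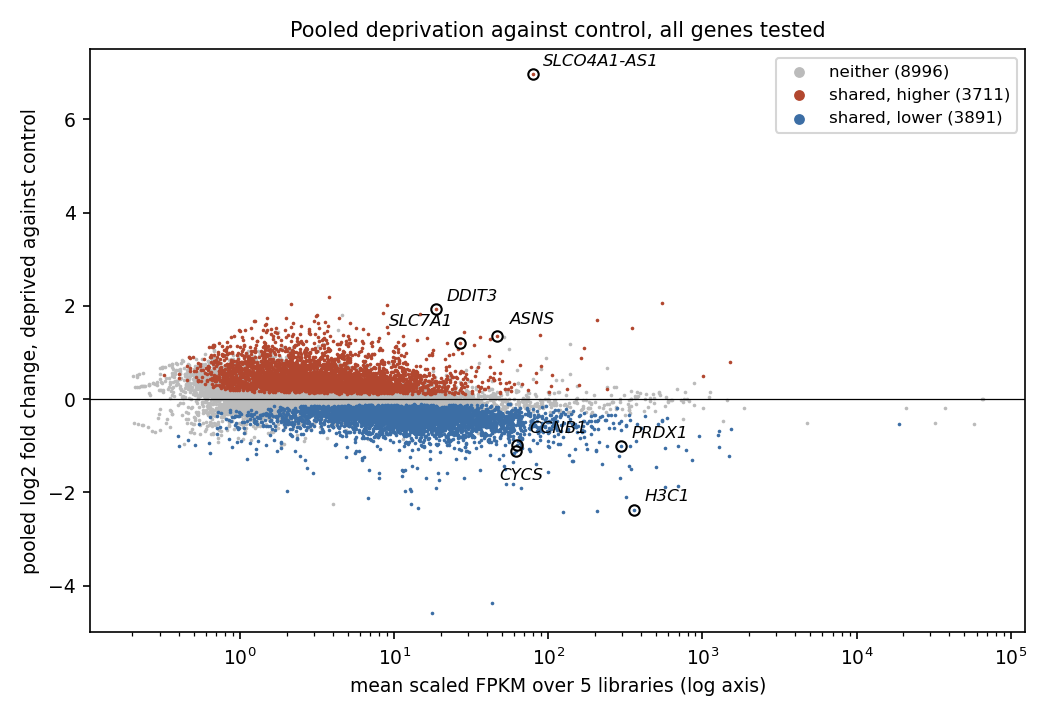
Pooled log2 fold change, deprived against control (vertical axis), against the mean scaled FPKM of the 5 libraries (horizontal log axis) for the 16598 genes tested; red points are the 3711 shared higher genes, blue the 3891 shared lower genes and grey the other 8996. Blue points lie mainly at 10 FPKM and above and red points mainly below it, and SLCO4A1-AS1 stands apart at the top.

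SLCO4A1-AS1, an RNA antisense to the organic anion transporter gene SLCO4A1, led the shared higher genes. It had 0.0383 and 0 FPKM in the controls, 145 and 137 FPKM without glucose and 114 FPKM without glutamine. These levels correspond to 2 and 0 inferred fragments in the controls against 8281, 7245 and 6533 in the deprived libraries, so that it went from barely detected to a level above that of ASNS. A fitted fold change depends on the pseudocount here and is not given. The annotation (GENCODE release 29, hg38) places it at chr20:62663019-62666724, within the span of SLCO4A1 on the opposite strand. SLCO4A1 itself had 5.18 and 4.47 FPKM in the controls, 3.29 and 3.39 FPKM without glucose and 5.16 FPKM without glutamine, overlapping groups with no pooled call (-0.17 ± 0.07, adjusted p = 0.059). Whether the counting used strand is not given in the sources used here, so reads of the pair cannot be assigned for certain.

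DDIT3, which encodes CHOP, had 5.30 and 5.20 FPKM in the controls, 34.1 and 33.5 FPKM without glucose and 15.3 FPKM without glutamine (pooled 1.93 ± 0.05, log2, SE; adjusted p = 7.55e-07). PCK2, the mitochondrial phosphoenolpyruvate carboxykinase, had 7.90 and 6.23 FPKM in the controls, 18.5 and 20.9 FPKM without glucose and 16.97 FPKM without glutamine (1.26 ± 0.09). NEAT1, the long RNA that scaffolds nuclear paraspeckles, had 4.93 and 5.89 FPKM in the controls, 21.2 and 17.01 FPKM without glucose and 24.4 FPKM without glutamine (1.82 ± 0.10). In each case the lowest deprived library stood well clear of the highest control, with DDIT3 higher in the glucose-deprived pair. SRRM2, a protein of nuclear speckles and the spliceosome, had 13.1 and 15.1 FPKM in the controls, 33.6 and 28.4 FPKM without glucose and 51.2 FPKM without glutamine (1.44 ± 0.08). MT-RNR2, the large mitochondrial ribosomal RNA, had 210 and 184 FPKM in the controls, 529 and 469 FPKM without glucose and 1349 FPKM without glutamine (2.05 ± 0.07). The libraries had been depleted of ribosomal RNA, so this value counts what depletion left. E2F3-IT1, MIR3122 and AC253536.3, non-coding entries, were also in the leading group, at 1.31 ± 0.23, 1.43 ± 0.24 and 1.23 ± 0.09.

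**Figure D3:**
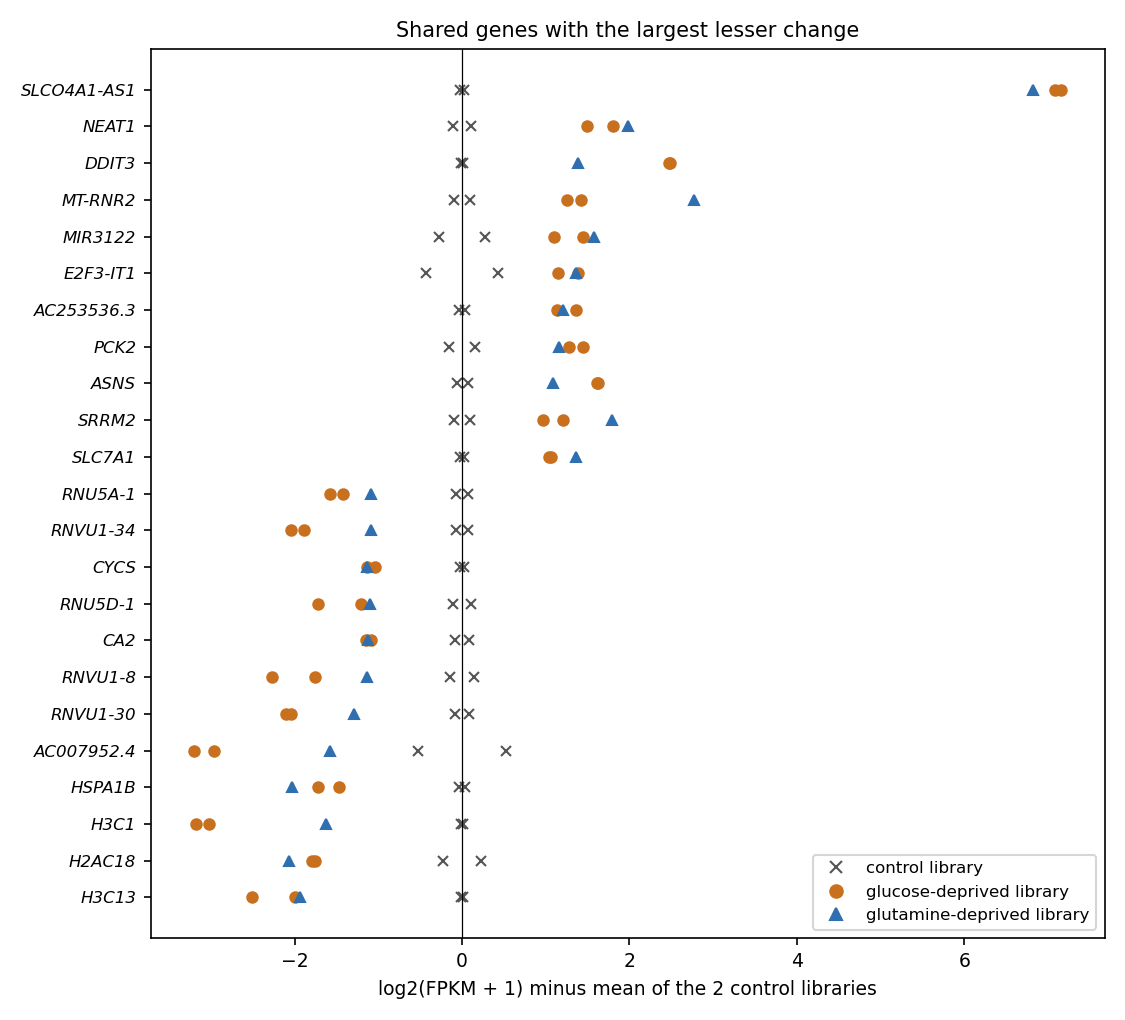
log2(FPKM + 1) of each library minus the mean of the 2 controls (horizontal axis) for the shared genes with the largest lesser change, 11 higher and 12 lower, with 1 further gene that met the rule not reported; crosses are controls, circles glucose-deprived and triangles glutamine-deprived libraries. CYCS and CA2 have circles and triangle together, whereas DDIT3, MT-RNR2 and H3C1 have them apart.

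ATF4, CHOP and other regulators and targets of their pathway rose in most cases. Of 33 tested members of this list, 24 were shared higher and 1 lower, with a median of 0.63 against 0.04 over all genes. ATF4 itself had 222 and 217 FPKM in the controls, 256 and 265 FPKM without glucose and 248 FPKM without glutamine, a small shared rise of 0.21 ± 0.04 (adjusted p = 0.00261). CHAC1, which degrades glutathione, had 1.29 and 0.564 FPKM in the controls, 2.09 and 2.46 FPKM without glucose and 9.65 FPKM without glutamine, so that the glutamine-deprived library stood far above the rest (pooled 1.64 ± 0.15). SESN2, a leucine-binding brake on mTORC1, was likewise highest there, at 15.9 and 15.5 FPKM in the controls, 19.7 and 20.7 FPKM without glucose and 49.4 FPKM without glutamine. Of 4 members with a pooled change below 0, only ALDH18A1, the enzyme of the first step from glutamate to proline, was shared lower. ALDH18A1 had 52.4 and 53.4 FPKM in the controls, 37.1 and 38.4 FPKM without glucose and 35.1 FPKM without glutamine (-0.53 ± 0.04, limma adjusted p = 2.55e-05). It was not called when libraries were set to the same total, under which 27 members were shared higher. With the 3 deprived libraries taken as replicates of 1 group, 15 were.

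Amino acid transporters moved the same way: 12 of 22 were shared higher and 1 lower, with a median of 0.32, and 5 were shared higher with the deprived libraries as 1 group. Besides SLC7A1, these included SLC43A1, an exchanger of large neutral amino acids, at 5.65 and 5.16 FPKM in the controls, 13.8 and 14.8 FPKM without glucose and 11.8 FPKM without glutamine (1.13 ± 0.06). SLC1A4, which carries alanine, serine and cysteine, had 2.08 and 1.88 FPKM in the controls and 5.88, 5.95 and 5.51 FPKM in the deprived libraries, nearly the same in both media (1.17 ± 0.05). SLC6A9, a glycine transporter, had 1.37 and 1.15 FPKM in the controls and 4.11, 3.90 and 5.50 FPKM in the deprived libraries (1.34 ± 0.06). The transporter shared lower was SLC1A3, a glutamate and aspartate importer, at 11.98 and 11.69 FPKM in the controls. It had 7.14 and 6.10 FPKM without glucose and 11.2 FPKM without glutamine, where its own change was -0.07 (limma adjusted p = 0.473). It was not shared with the values as deposited, with upper-quartile scaling, with libraries set to the same total or with the deprived libraries as 1 group.

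Neighbouring lists were mixed. Of 20 cytosolic aminoacyl-tRNA synthetases, which load tRNAs, 4 were shared higher (20%) and 6 lower (30%), near the 22.4% and 23.4% of all genes. CARS1, the cysteine enzyme, rose from 6.73 and 6.24 FPKM to 9.98, 9.97 and 10.1 FPKM (0.56 ± 0.05), and RARS1, the arginine enzyme, fell from 57.8 and 60.5 FPKM to 47.9 and 44.8 FPKM without glucose and 35.5 FPKM without glutamine (-0.53 ± 0.05). The list's median was -0.10, and it was 0.12 with libraries set to the same total. Of 21 brakes and sensors of mTORC1, 7 were shared higher and 3 lower; without control replicate 1 or without control replicate 2, 4 were shared higher, and with the deprived libraries as 1 group 0 were shared in either direction. RRAGA, a GTPase that recruits mTORC1 to lysosomes, fell by 0.39 ± 0.05 on the log2 scale. Of 30 chaperones and unfolded protein response genes of the endoplasmic reticulum, 7 were shared higher (23.3%, near the 22.4% of all genes) and 3 lower (10%). With the deprived libraries as 1 group 2 were shared higher and 0 lower. Without control replicate 1 or without control replicate 2, 1 was shared lower. That list's median was 0.47 without glucose and -0.25 without glutamine. Its shared members included HERPUD1, a factor in degradation of misfolded proteins, at 9.97 and 9.44 FPKM in the controls, 20.6 and 20.7 FPKM without glucose and 13.3 FPKM without glutamine. SEC61B, a channel subunit of the same organelle, fell by 0.58 ± 0.05 on the log2 scale.

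Immediate early genes are transcription factor genes that respond within minutes to signals. Of 12 tested, 5 were shared higher (41.7%) and 2 lower (16.7%), against 22.4% and 23.4% of all genes. With the deprived libraries as 1 group 2 were shared higher and 1 lower. JUN had 15.6 and 15.2 FPKM in the controls, 61.6 and 63.1 FPKM without glucose and 26.0 FPKM without glutamine (1.33 ± 0.04, adjusted p = 2.04e-06). JUND had 14.1 and 13.2 FPKM in the controls, 36.5 and 43.5 FPKM without glucose and 21.9 FPKM without glutamine (1.07 ± 0.07). Both were highest in the glucose-deprived pair. Without control replicate 1, 3 members of the list were shared higher and 0 lower.

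Of the 23 lists, histone genes had the lowest median. These are the replication-dependent genes, which supply histones in S phase. Of 42 tested, 40 were shared lower and 0 higher, with a median of -1.22. H3C1 had 706 and 697 FPKM in the controls, 76.8 and 85.3 FPKM without glucose and 226 FPKM without glutamine (-2.37 ± 0.05, adjusted p = 4.24e-07). H3C13 had 598 and 585 FPKM in the controls, 103 and 147 FPKM without glucose and 154 FPKM without glutamine (-2.09 ± 0.13). H1-3, a linker histone, had 255 and 230 FPKM in the controls, 20.3 and 19.6 FPKM without glucose and 96.2 FPKM without glutamine (-2.43 ± 0.05). The fall of H3C1 and H1-3 was steeper without glucose, while H2AC18 had 19.6 and 27.1 FPKM in the controls, 6.10 and 5.94 FPKM without glucose and 4.72 FPKM without glutamine. Summed over the list, histone transcripts stood at 23045 and 24013 FPKM in the controls, 8314 and 9366 FPKM without glucose and 11958 FPKM without glutamine. Many histone genes are near-identical copies, and how reads were split between them is not known.

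Mitotic genes fell as a group: 33 of 40 were shared lower and 0 higher, with a median of -0.55. AURKA, the centrosomal kinase Aurora A, had 40.2 and 41.5 FPKM in the controls, 14.9 and 15.5 FPKM without glucose and 22.8 FPKM without glutamine (-1.09 ± 0.04, adjusted p = 4.19e-06). With libraries set to the same total 18 members were shared lower. DNA replication genes divided more, with 27 of 43 shared lower (62.8%) and 5 higher. Of all genes at 10 to 100 FPKM, 53.2% were shared lower. In the replication list 3 were shared higher without control replicate 1 or without control replicate 2. With the deprived libraries as 1 group 10 of that list were shared lower, and 3 were with libraries set to the same total. GINS1, a subunit of the replicative helicase, had 19.4 and 19.4 FPKM in the controls, 11.01 and 12.2 FPKM without glucose and 10.6 FPKM without glutamine (-0.75 ± 0.05). CDT1, which licenses replication origins and is normally made before S phase, went the other way, from 27.2 and 25.2 FPKM to 50.4 and 56.5 FPKM without glucose and 47.9 FPKM without glutamine (0.92 ± 0.06, adjusted p = 1.36e-05). Of 24 inhibitors of the cell cycle and genes of quiescence, 5 were shared higher (20.8%, near the 22.4% of all genes) and 3 lower (12.5%). FOXO3, a transcription factor restrained by growth signals, rose from 11.03 and 11.29 FPKM to 16.8, 16.5 and 15.2 FPKM, and CDKN2C, the CDK inhibitor p18, fell from 15.4 and 16.5 FPKM to 9.32, 9.44 and 11.998 FPKM.

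Mitochondrial energy genes encoded in the nucleus fell in both media. Of 61 subunits of the respiratory chain and ATP synthase, 56 were shared lower and 0 higher, with a median of -0.52. ATP5MC1, part of the rotor of ATP synthase, had 42.4 and 41.0 FPKM in the controls, 19.6 and 21.5 FPKM without glucose and 21.5 FPKM without glutamine (-0.95 ± 0.05, adjusted p = 7.99e-06). Of 26 genes of the TCA cycle and pyruvate entry, 19 were shared lower (73.1%). Over all genes 23.4% were, and over all genes at 10 to 100 FPKM 53.2%. The list also held IDH1, the cytosolic isocitrate dehydrogenase, which is not a mitochondrial enzyme. It had 22.8 and 24.0 FPKM in the controls, 8.32 and 8.63 FPKM without glucose and 14.8 FPKM without glutamine (-0.998 ± 0.04). MPC1, a subunit of the carrier that brings pyruvate into mitochondria, went from 32.7 and 32.9 FPKM to 21.3, 21.6 and 19.3 FPKM. The 6 members in neither direction had changes of 0.0023 to 0.13, and 1 was shared higher: PC, pyruvate carboxylase, which makes oxaloacetate from pyruvate and rose from 2.93 and 3.14 FPKM to 3.99, 4.36 and 4.27 FPKM (0.37 ± 0.06, adjusted p = 0.000822). With libraries set to the same total, 24 respiratory chain members and 3 of the TCA list were shared lower, and with the deprived libraries as 1 group 33 and 11 were.

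The messenger RNAs encoded in mitochondrial DNA did not move together in both media. Of 13, 3 were shared higher (23.1%, near the 22.4% of all genes) and 2 lower (15.4%). Without glucose-deprived replicate 2, 5 were shared higher. The list's median was 0.67 in the pooled comparison, -0.17 without glucose and 1.76 without glutamine, and 11 of the 13 differed between the media. MT-CO1, a catalytic subunit of cytochrome oxidase, had 1110 and 1062 FPKM in the controls, 1622 and 1479 FPKM without glucose and 2298 FPKM without glutamine. MT-ND6, which lies on the opposite strand from the other protein-coding mitochondrial genes, had 50.6 and 49.3 FPKM in the controls, 27.8 and 21.8 FPKM without glucose and 27.4 FPKM without glutamine (-0.92 ± 0.09, adjusted p = 0.000107). Its deprived libraries thus lay well below the controls in both media.

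Glycolysis genes fell less uniformly, 12 of 23 shared lower (52.2%) and 1 higher, and 7 were shared lower with libraries set to the same total. The share of 52.2% was close to those of all genes at 10 to 100 FPKM (53.2%) and above 100 FPKM (48.6%). PGAM1, phosphoglycerate mutase, had 165 and 168 FPKM in the controls, 71.7 and 75.6 FPKM without glucose and 97.0 FPKM without glutamine (-0.97 ± 0.04), and TPI1, triosephosphate isomerase, went from 379 and 383 FPKM to 233, 244 and 242 FPKM (-0.66 ± 0.04). The higher gene was ENO2, an enolase of low level here, from 2.07 and 1.61 FPKM to 2.23, 2.74 and 2.92 FPKM (0.38 ± 0.09). ENO2 was not shared without control replicate 2 or with the deprived libraries as 1 group.

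Proteasome subunits and most heat shock chaperones fell in both media. All 31 proteasome subunits tested were shared lower, with a median of -0.60. PSMD1 had 49.7 and 52.2 FPKM in the controls and 26.8, 27.5 and 27.5 FPKM in the deprived libraries (-0.87 ± 0.04), and PSMA4 had 36.3 and 36.0 FPKM against 20.91, 20.503 and 19.89 FPKM (-0.80 ± 0.04). In both genes the 3 deprived values lay closer to one another than to either control. Of 29 heat shock chaperones, 26 were shared lower. HSPA1B, the inducible HSP70, had 89.96 and 93.85 FPKM in the controls, 27.3 and 32.6 FPKM without glucose and 21.7 FPKM without glutamine (-1.81 ± 0.07, adjusted p = 4.19e-06). HSPE1, the co-chaperone of mitochondrial HSP60, had 78.0 and 74.3 FPKM in the controls, 36.3 and 35.0 FPKM without glucose and 29.97 FPKM without glutamine (-1.19 ± 0.04). The exception was HSF1, the transcription factor of the heat shock response, from 8.79 and 8.29 FPKM to 9.32, 10.9 and 10.0 FPKM (0.21 ± 0.07, adjusted p = 0.0243). HSF1 was not shared without control replicate 1, without control replicate 2 or with the deprived libraries as 1 group. Nor was it with each medium called on its own. With libraries set to the same total 16 proteasome and 18 chaperone genes were shared lower.

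Antioxidant enzymes fell as well, 25 of 31 shared lower and 0 higher, with a median of -0.46. CAT, catalase, had 12.9 and 12.5 FPKM in the controls and 7.82, 7.66 and 7.83 FPKM in the deprived libraries (-0.64 ± 0.05, adjusted p = 2.15e-05). HMOX1, the heme oxygenase induced by oxidative stress, had 10.01 and 10.97 FPKM in the controls, 3.16 and 3.16 FPKM without glucose and 4.65 FPKM without glutamine (-1.24 ± 0.06). With libraries set to the same total 12 members were shared lower. CA2, a cytosolic carbonic anhydrase and one of the leading lower genes, had 120.1 and 106 FPKM in the controls, 50.5 and 52.5 FPKM without glucose and 51.2 FPKM without glutamine, as low in one medium as in the other.

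Genes that build ribosomes fell, and the genes of ribosomal proteins did not do so in both media. Of 32 genes of ribosome biogenesis and RNA polymerase I, 24 were shared lower and 0 higher, with a median of -0.48. NOP16, a nucleolar assembly factor, had 25.37 and 24.998 FPKM in the controls, 12.6 and 12.4 FPKM without glucose and 9.94 FPKM without glutamine (-1.11 ± 0.04). NOP10, a component of the RNA pseudouridylation particle, had 122 and 125 FPKM in the controls and 59.2, 68.2 and 69.4 FPKM in the deprived libraries (-0.89 ± 0.06). Of 75 cytosolic ribosomal protein genes only RPL35 and RPS26 were shared lower, and the list's median was 0.21 without glucose and -0.39 without glutamine. All 75 differed between the media. RPS26 had 129 and 124 FPKM in the controls, 113 and 107 FPKM without glucose and 70.3 FPKM without glutamine. Without glucose-deprived replicate 2, 8 of the list were shared lower. With libraries set to the same total 10 biogenesis genes were shared lower (12 with the deprived libraries as 1 group), and 7 ribosomal protein genes were shared higher.

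In nucleotide synthesis 11 of 23 genes were shared lower (47.8%, against 53.2% of all genes at 10 to 100 FPKM) and 3 higher. Without control replicate 1 or without control replicate 2, 1 was shared higher, as with a replicate block. PRPS1, which makes the ribose donor of nucleotides, fell from 66.2 and 65.6 FPKM to 48.6, 48.1 and 43.6 FPKM, and NME1, a nucleoside diphosphate kinase, from 76.2 and 72.9 FPKM to 43.8, 46.1 and 40.7 FPKM (-0.79 ± 0.04). CAD, the enzyme that starts pyrimidine synthesis from glutamine, rose from 23.3 and 23.7 FPKM to 31.1, 32.4 and 34.1 FPKM (0.47 ± 0.04, adjusted p = 4.24e-05). Of 24 cholesterol genes 15 were shared lower (62.5%) and 1 higher. That 1 was SREBF2, the master regulator of the pathway, which had 12.9 FPKM in both controls and 20.6, 21.3 and 21.4 FPKM in the deprived libraries (0.67 ± 0.04, adjusted p = 1.04e-05). NSDHL, a sterol dehydrogenase, fell from 29.9 and 29.6 FPKM to 19.6, 19.5 and 17.3 FPKM. With libraries set to the same total, 3 cholesterol genes and 1 nucleotide synthesis gene were shared lower.

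Autophagy and lysosome genes went both ways: 6 of 38 were shared higher (15.8%) and 13 lower (34.2%), against 22.4% and 23.4% of all genes. Their median of -0.08 became 0.091 with libraries set to the same total. Without control replicate 1 or without control replicate 2 the shared higher members numbered 3. ULK1, the kinase that starts autophagy, rose from 1.97 and 2.06 FPKM to 2.92 and 3.14 FPKM without glucose and 4.67 FPKM without glutamine (0.66 ± 0.05, adjusted p = 3.23e-05). GAA, the lysosomal enzyme that breaks down glycogen, rose by 0.40 ± 0.05, whereas CTSL, the protease cathepsin L, fell from 30.04 and 30.7 FPKM to 21.9, 22.6 and 17.7 FPKM, and GLA, a lysosomal galactosidase, from 41.2 and 40.8 FPKM to 21.5, 22.1 and 17.9 FPKM (-1.02 ± 0.04). Among 15 iron genes 5 were shared higher (33.3%) and 4 lower (26.7%). PCBP2, an iron chaperone and RNA-binding protein, rose from 17.1 and 18.3 FPKM to 32.1, 28.6 and 42.5 FPKM (0.98 ± 0.06), and ACO1, the iron-sensing aconitase, fell by 0.43 ± 0.05 on the log2 scale. Without control replicate 1, 2 iron genes were shared higher, and without control replicate 2, 1 was.

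**Figure D4:**
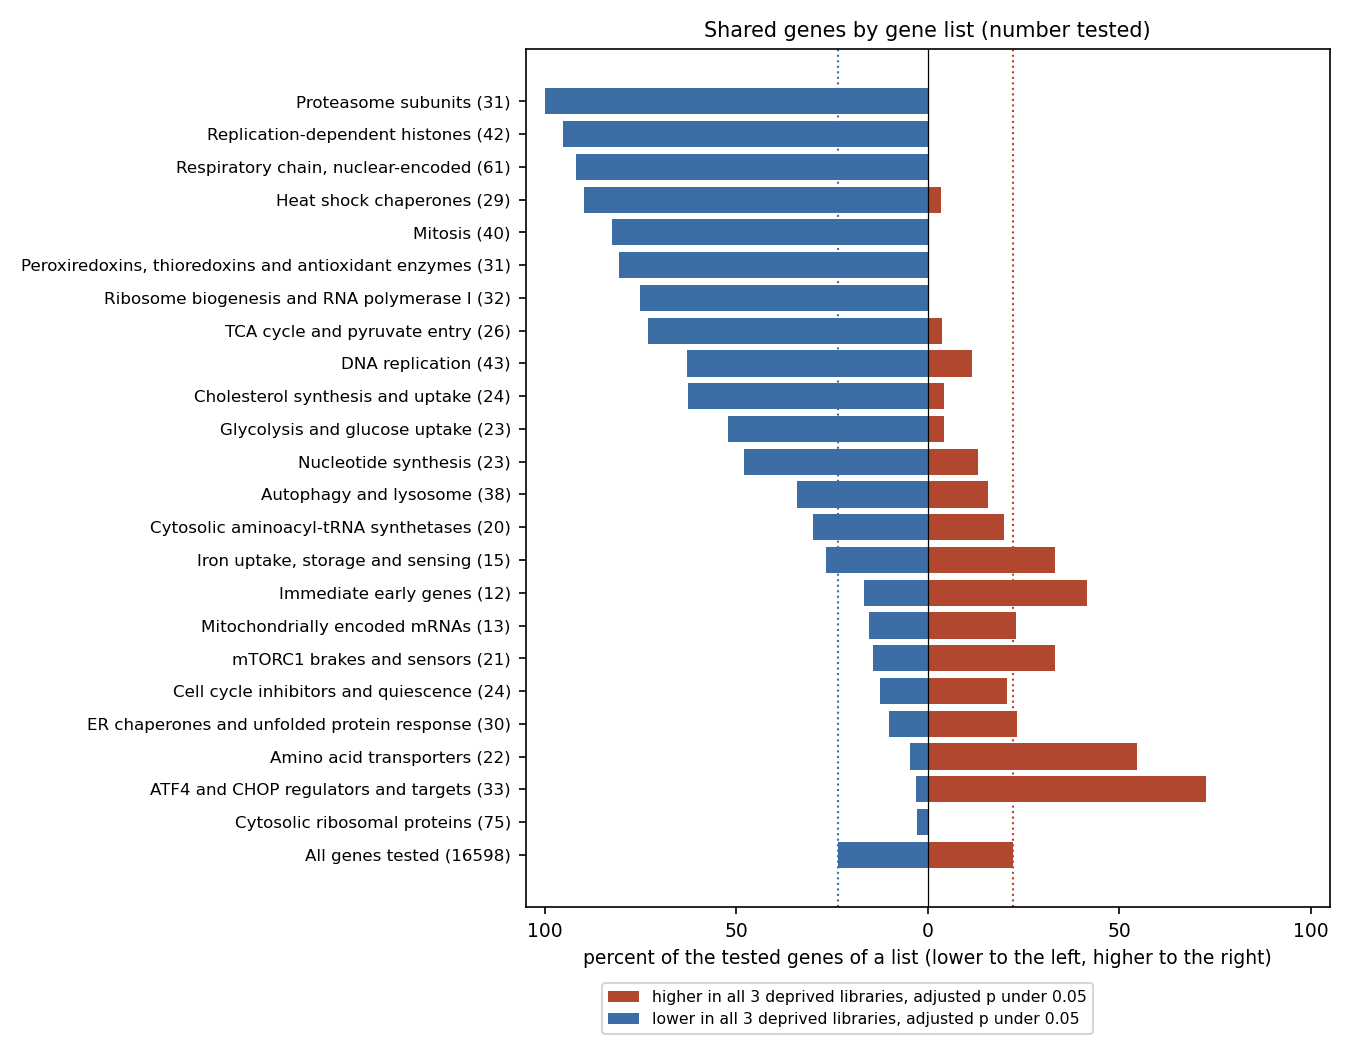
Percent of the tested genes of each list (number in brackets) that were shared lower (blue, to the left) or shared higher (red, to the right); dotted lines mark the shares over all genes, 23.4% lower and 22.4% higher. Proteasome subunits (31 of 31) and histones (40 of 42) lie farthest left and the ATF4 and CHOP list (24 of 33) farthest right.

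Sharing a direction did not mean an equal size. Glutamine and glucose deprivation differed in 7403 of the 16598 genes (44.6%). Of the shared genes, 1416 of those higher (38.2%) and 1887 of those lower (48.5%) differed in size between the media. Among the higher ones the larger change lay with glutamine deprivation in 810 and with glucose deprivation in 606, and among the lower ones in 1090 and 797. Only 1 glutamine-deprived library stands on one side of this difference, and its spread is assumed to match that of the other groups.

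The kinds of gene differed between the directions. Of the 114 genes at least 2-fold higher in both media, 110 carried an annotation, and of these 11 were protein-coding, 57 small RNAs and 20 each antisense or long intergenic RNAs and pseudogenes. Their median exon length was 118 bases. Of the 50 genes at least 2-fold lower in both media, 46 carried an annotation, and of these 28 (60.9%) were protein-coding and 14 small RNAs. The filter asked for 1 FPKM in any 1 library: 50 of the 114 higher genes were under 1 FPKM in both controls, 11 of them at 0, and so entered only through the deprived libraries, which partly fixes the make-up of this set. Of 57 such small RNA genes, 50 (87.7%) lay within an intron of a gene on the same strand, against 844 of 1182 small RNA genes tested (71.4%). Among the 14 small RNA genes at least 2-fold lower, 4 (28.6%) did. MicroRNA hairpins were shared higher in 92 of 503 cases (18.3%, below the 22.4% of all genes) and lower in 11 (2.2%). Intronic transcripts named IT were shared higher in 22 of 51 (43.1%) and lower in 0. For members of low level the same filter partly fixes these splits. Total RNA was sequenced, so a count over a small gene inside an intron can include fragments of its host's unspliced transcript, whose part was not tested.

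Spliceosomal RNAs differed by family. Of 8 copies of RNU5, which encode the U5 RNA, 6 were shared lower. Of 41 U1 and variant U1 copies 16 were shared lower (39%, against 23.4% of all genes) and 2 higher. Of 219 RNU6 copies, 29 (13.2%, below the 22.4% of all genes) were shared higher and 6 (2.7%) lower, with a median of 0.30. The filter asked for 1 FPKM in any 1 library, with 3 deprived libraries against 2 controls. For copies of low level it thus partly fixes this split and the sign of the median. Copies named as pseudogenes, such as RNU6-122P, are among them. RNU5A-1 had 38.2 and 42.1 FPKM in the controls, 14.3 and 12.8 FPKM without glucose and 18.4 FPKM without glutamine (-1.29 ± 0.11), and RNU5D-1 fell by 1.28 ± 0.18 on the log2 scale. The variant U1 genes RNVU1-8, RNVU1-30 and RNVU1-34 fell by 1.57 ± 0.15, 1.68 ± 0.11 and 1.53 ± 0.09 on the log2 scale. AC007952.4, which overlaps the snoRNA gene SNORD3D, had 39.4 and 18.5 FPKM in the controls, far apart, and 2.06, 2.61 and 8.38 FPKM in the deprived libraries. Copies of these RNAs are near-identical, so their single values are uncertain, and small RNAs are poorly held by libraries of long fragments.

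Gene length differed between the directions within one range of levels. Among protein-coding genes of 10 to 100 FPKM, whose median level was 14.4 FPKM for shared higher, 19.97 FPKM for shared lower and 15.4 FPKM for the remaining genes, the 397 shared higher had a median exon length of 6742 bases and a median span of 49.2 kb, the 2143 shared lower 3815 bases and 23.0 kb, and the 1411 in neither group 4739 bases and 33.7 kb. The part of RNA quality or fragment length in this was not tested.

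Of the genes tested, 9832 had a promoter in the RefSeq table, the 300 bases from 250 before to 50 after the start site. TGATGNAA on either strand was in 1003 of all 27305 promoters of the table (3.67%) and in 154 of the 9832 of genes tested (1.57%). It was in 32 of 2097 shared higher (1.53%) and 46 of 3024 shared lower promoters (1.52%), close to the share over genes tested, in 8 of 138 of the genes at least 1.5-fold higher in both media (5.8%; exact 95% interval 2.54% to 11.1%) and in 4 of 26 of the ATF4 and CHOP list (15.4%). TTTGAA, the core of the CHR element of cell cycle genes, was in 15.4% of all promoters, in 9.31% of those of genes tested and in 22 of 34 mitotic ones (64.7%). CCAAT was in 35.7% of all promoters and 37.6% of those of genes tested. It was in 28 of 34 mitotic (82.4%), in 31 of 38 histone (81.6%), in 15 of 26 of the ATF4 and CHOP list, which rose (57.7%), in 41.2% of shared lower and in 33.2% of shared higher promoters. All 3 motifs were searched on both strands and counted separately, and none contains another. These shares describe sequence only.

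At the threshold itself, only genes of higher level with no overlap between deprived and control libraries were considered. Of these, EYA3 (limma adjusted p = 0.0496) and VARS1 (0.0499) were the nearest called, each with a change of -0.12. TEDC2 (0.0508) and ETFDH (0.0517) were the nearest of these not called, each with -0.15.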

How the data were processed

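RNA of 95D cells was sequenced as total RNA depleted of ribosomal RNA, per the labels' protocols. HISAT2 2.0.5, StringTie and hg38 are named in the submitters' processing notes; for annotation and strand, the setting was not given in the sources used here. Deposited values were read as FPKM computed by the authors. No header names the unit, which was inferred from the sum per library, 493129 to 571208, and steps of whole reads in 3990 to 4394 single-exon genes, 95.2% to 95.9% whole within 0.05 reads. These steps also gave the depth. In the tables read, 1 column of sample values was not used, because its header names a group other than its table's.

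Values were divided by trimmed-mean factors of 0.960 to 1.08. Genes with at least 1 scaled FPKM in at least 1 library were tested (16598) on log2(FPKM + 1) with limma 3.58.1 (R 4.3.3), with a coefficient per group and a variance trend over inferred reads (FPKM times GENCODE release 29 exon length), on 2 residual degrees of freedom. The contrast is the mean of both media minus control, and adjusted p-values are two-sided Benjamini-Hochberg values. Fold changes of low genes are understated by the pseudocount of 1. No label states whether replicates were separate cultures; p-values thus measure only the spread between these libraries, which may be technical. The method was tested on simulated data. Alternatives covered scaling, pseudocount, filter, trend, threshold, replicate block and left-out libraries.

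Members, lists and tests were chosen with earlier results of these data known. Named genes are 5 given genes, the 12 higher and 12 lower shared genes with the largest lesser change and a mean log2 level of at least 3 (3 histones at most), of each list the leading 2 and the 1 most against its median, and genes next to the threshold. A gene that met the rule is not reported here. ATF4, CHAC1, ENO2, H1-3, HMOX1, KRT8, KRT18, PC, SLC1A4, SLC6A9, SLCO4A1, SYP, ULK1 and VIM were named after their values were seen.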

Additional observations from a re-analysis of the deposited data

Results flagged for a closer look

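Some of the shared genes named above changed by different amounts in the 2 media by the limma test of the difference itself (adjusted p under 0.05), given here as log2 values, glutamine minus glucose deprivation. Among shared higher genes, the rise was larger without glutamine for CHAC1 (1.70), MT-CO1 (0.57), MT-RNR2 (1.44), PCBP2 (0.48), SESN2 (1.25), SLC6A9 (0.38), SLC7A1 (0.31), SRRM2 (0.71) and ULK1 (0.49). The rise was larger without glucose for ASNS (-0.53), DDIT3 (-1.09), GAA (-0.20), HERPUD1 (-0.60), JUN (-1.23), JUND (-0.83), SLC43A1 (-0.26), SLCO4A1-AS1 (-0.30) and VIM (-0.74). Among shared lower genes, the fall was larger without glutamine for CTSL (-0.31), GLA (-0.27), HSPA1B (-0.44), HSPE1 (-0.24), NOP16 (-0.30), NSDHL (-0.17), PRPS1 (-0.15), RARS1 (-0.37), RPL35 (-0.50), RPS26 (-0.64), RRAGA (-0.46) and SEC61B (-0.44). The fall was larger without glucose for AC007952.4 (1.498), ACO1 (0.22), AURKA (0.56), CCNB1 (0.34), CDKN2C (0.32), H1-3 (2.22), H3C1 (1.47), HMOX1 (0.44), IDH1 (0.73), PGAM1 (0.39), RNU5A-1 (0.42), RNVU1-30 (0.78), RNVU1-34 (0.88), RNVU1-8 (0.88) and SLC1A3 (0.68). On their own, the changes of VIM (0.14) and SLC1A3 (-0.07) without glutamine and of RPL35 (-0.11) without glucose were not called. The comparison between media rests on 1 glutamine-deprived library, and over all genes 44.6% differed by the same test.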

How the results depend on the processing

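Nothing beyond a shared number ties the replicates, and the numbers of the control and glucose-deprived libraries correlated at -0.19 over 6032 genes (2 pairs). A fit with replicate as a block called 8591 genes, with 3490 shared higher, 3765 lower and 2681 of the shared genes differing between media. With the pairing crossed, 9472 genes were called. Against 9104 calls, 3711 shared higher, 3891 shared lower and 3303 that differed between media, a stricter filter gave 5504 calls and 1185 shared higher, calls in each medium on its own gave 5810, 2180 higher and 2012 that differed, and the deprived libraries as 1 group gave 2513, 989 higher and 1524 lower. The number that differed was 1295 with libraries set to the same total, under which 928 were shared lower, 1788 with no filter, 2137 with no variance trend and 1956 at a threshold of 0.01. Leaving out each library in turn gave 5781 to 8815 calls, 2268 to 3734 shared higher, 3166 to 3991 shared lower and 2170 to 2945 that differed; leaving out glutamine_deprived replicate 1 was not run, since no glutamine library is left.

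Of 23 lists, 6 had a median above 0, against 11 with the values as deposited, with upper-quartile scaling and with the same total. The medians that changed sign under these 3 scalings were those of tRNA synthetases (0.0077, 0.0085 and 0.12), cell cycle inhibitors (0.055, 0.056 and 0.15), ribosomal proteins (0.025, 0.026 and 0.14), autophagy (0.010, 0.011 and 0.091) and iron genes (0.069, 0.070 and 0.16). Iron genes also gave 0.0021 with the stricter filter, 0.011 as 1 group and, leaving out the controls in turn, from -0.062 without control replicate 1 to 0.012 without control replicate 2. Ribosomal proteins gave 0.0059 as 1 group and immediate early genes -0.00929 with no filter. Of genes, EYA3 (0.084), VARS1 (0.092), TEDC2 (0.043), ETFDH (0.039) and SLCO4A1 (0.012) changed sign with the same total. The share of promoters with a motif moved under the same total to 14.3% (TTTGAA, shared lower) and 47.3% (CCAAT, shared lower), with the stricter filter to 35.5% (CCAAT, shared higher), and as 1 group to 2.63% (TGATGNAA, shared higher), 29.9% (CCAAT, higher) and 44.4% (CCAAT, lower). Over 85 named genes and 19 alternatives, 1503 values kept direction and call, 89 lost the call, 9 gained it and 5 changed sign. Among those that lost it as 1 group were SESN2, CHAC1, ULK1, VIM, MT-CO1, RARS1, SEC61B and RRAGA. The causes were not tested. Of 1995 genes with a mean of 1 FPKM or below, 16.4% were shared higher and 1.85% lower. Such genes were tested only where at least 1 library reached 1 FPKM, with 3 deprived libraries against 2 controls. The filter thus partly fixes this imbalance.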
